A study of Saccharomyces cerevisiae with 6 samples.

Results

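The cytosolic ribosomal protein genes of budding yeast (Saccharomyces cerevisiae) were examined for their transcript levels with and without the activator Gcn4. A gene was taken when its name in the array annotation began with RPL or RPS and a number, or was RPP0, RPP1A, RPP1B, RPP2A or RPP2B. This gave 127 genes of 5449 measured, of which 70 encode proteins of the large subunit, 52 proteins of the small subunit and 5 proteins of the P stalk. The tested cultures were of a gcn4Δ strain (S288C, MATa, GCN4 deleted) in YNB medium with 0.1 mM aminotriazole (3AT), and the cultures they were set against were of the wild type (S288C, MATa) in the same kind of medium with 10 mM 3AT, 3 samples of each and 1 array a sample. All grew aerobically in chemostats at 30 °C and pH 5, where the dilution rate of 0.10 per hour fixes the growth rate. 3AT inhibits the histidine enzyme encoded by HIS3, and its concentration differs between the strains, so deletion and 3AT concentration cannot be told apart in any value given here. Whether replicates were grown in separate chemostats is not given, so each p-value rests on how far these arrays scatter, and that scatter may be technical only.

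Each ribosome is built from ribosomal RNA and a near-complete set of ribosomal proteins, and cells make these proteins in matched amounts. In S. cerevisiae most of them are encoded by a pair of genes, A and B, left from an ancient duplication of the genome, whose proteins are identical or nearly so. Their promoters are bound by Rap1, Fhl1, Ifh1 and Sfp1, and their transcription rises with growth rate and falls when nutrients or amino acids run short. Growth at a fixed dilution rate is therefore a setting in which these genes can be compared at one growth rate.

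Values are RMA intensities on a linear scale, and changes are differences of mean log2 intensity, gcn4Δ minus wild type. The median intensity over S. cerevisiae probe sets was 665 to 712 on the gcn4Δ arrays and 682 to 694 on the wild-type arrays. GCN4 itself read 14.5, 213 and 11.4 on the gcn4Δ arrays, against 7312, 7309 and 7248 in the wild type. The background level (defined below) was 21.1, 25.2 and 18.4 on the gcn4Δ arrays. Among these, GCN4 stood above it on replicate 2 alone, and the source of that signal was not tested. MATa marker genes had a summed intensity of 10074 to 10811 in gcn4Δ and 7099 to 10988 in the wild type, and MATα markers one of 694 to 727 in gcn4Δ and 605 to 934 in the wild type. None of the 6 MATa and 4 MATα genes was called by limma (1 MATa and 0 MATα genes at an unadjusted p under 0.05). Of 6 sporulation markers 2 were called higher and 1 lower in gcn4Δ, beside 5.34% and 6.0% of all genes. SPR3 was higher by 2.10 on the log2 scale, with mean intensities of 157 in gcn4Δ and 36.2 in the wild type. NDT80 was higher by 0.48, and IME1 was at -0.43. The 6 summed to 1044 to 1193 in gcn4Δ and 839 to 901 in the wild type. The part of such cells in the results below was not tested, and in bulk RNA fewer cells of a type and less RNA per cell cannot be told apart.

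Ribosomal protein transcripts differed little between the strains in measured intensity. Of the 127 genes, 4 rose in gcn4Δ, 0 fell and 123 did not pass the test (limma, adjusted p under 0.05 over all S. cerevisiae probe sets). Over all 5449 genes 5.34% were called higher and 6.0% lower, so the 3.15% of ribosomal protein genes called higher is not above that background, and the count lower was 0. At an unadjusted p under 0.05, 9 were higher (7.09%) and 0 lower, beside 891 (16.4%) higher and 669 lower of all 5449 genes. The changes ran from -0.08 (RPL21B) to 0.68 (RPS14B), with quartiles of 0.05 and 0.17 and a median of 0.10. Over all genes the median was 0.04 and the quartiles were -0.16 and 0.21. By intensity, however, 120 of the 127 members were among the 545 brightest of the 5449 genes. All genes are thus not matched to the members in intensity. Whether changes of other genes as bright lie as close together was not tested. Most changes of members leaned the same way: 120 of 127 were above 0, or 94.5%, beside 55.7% of all genes. The 127 genes share the same arrays and are not independent, so this count is not 127 separate observations. Relative to each gene's mean over all arrays, the members' median per array had a pooled SD within groups of 0.08. The median change was 0.10. The 3 gcn4Δ values all lay above the 3 wild-type values for 35 members (27.6%) and all below for 0, beside 21.1% and 14.6% of all genes.

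**Figure D1:**
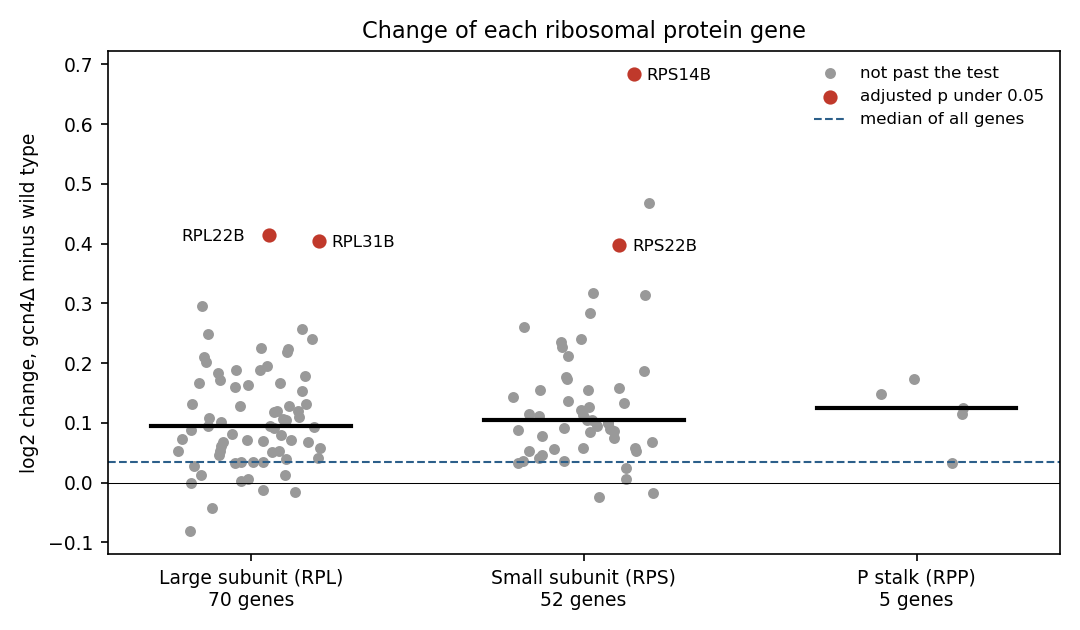
Change of each of the 127 ribosomal protein genes (log2, gcn4Δ minus wild type, n = 3 each), by subunit. Each point is a gene, black bars are medians, the dashed line is the median of all 5449 genes, and red points are the 4 genes that passed the test, all of them B copies.

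The 4 genes that rose were RPS14B, RPL22B, RPL31B and RPS22B, each the B copy of its pair. RPS14B (YJL191W, chromosome X) encodes a protein of the small subunit, and Rps14 protein is known to repress RPS14B by binding its transcript. RPS14B read 1787, 2129 and 1739 in gcn4Δ, against 1312, 917 and 1325 in the wild type. Every gcn4Δ array was above every wild-type array, and the change of RPS14B was 0.68 ± 0.17 on the log2 scale (SE, adjusted p = 0.0460, limma), or 1.61-fold.

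RPL22B (YFL034C-A, chromosome VI) encodes a large-subunit protein, and Rpl22 protein is known to act on the intron of RPL22B. RPL22B read 1597, 1641 and 1586 in gcn4Δ, against 1127, 1232 and 1263 in the wild type. Its gcn4Δ arrays lay close together and apart from the wild type, with a change of 0.41 ± 0.08 (SE, adjusted p = 0.0236, limma), the smallest adjusted p among the members.

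RPL31B (YLR406C, chromosome XII) encodes a protein at the rim of the tunnel through which the new polypeptide leaves the ribosome. RPL31B read 3549, 3835 and 3304 in gcn4Δ, against 2918, 2689 and 2469 in the wild type. The groups did not overlap, and the change was 0.40 ± 0.10 (SE, adjusted p = 0.0499, limma). RPS22B (YLR367W, chromosome XII) encodes a small-subunit protein, and its gene hosts a small nucleolar RNA in an intron. RPS22B read 2733, 2750 and 2468 in gcn4Δ, against 1884, 2169 and 1985 in the wild type. These groups did not overlap either, and the change was 0.40 ± 0.09 (SE, adjusted p = 0.0412, limma).

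Close below the threshold stood RPS9A, RPS25B and RPS28B. RPS28B (YLR264W), whose transcript is bound and destabilised by Rps28 protein, read 2862, 3367 and 3150 in gcn4Δ, against 2808, 2063 and 1981 in the wild type. Its change of 0.47 ± 0.15 (SE, adjusted p = 0.0990, limma) was the second largest among the members, and its groups were apart by a small gap, between gcn4Δ replicate 1 and wild type replicate 1. RPS9A (YPL081W), which encodes a protein that bears on the accuracy of decoding, read 2077, 2273 and 2121 in gcn4Δ, against 1627, 1717 and 1854 in the wild type (0.32 ± 0.09, SE, adjusted p = 0.0687, limma). Its groups were apart, as were those of RPS28A (0.31, adjusted p = 0.140) and RPS25B (0.24, adjusted p = 0.0915).

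**Figure D2:**
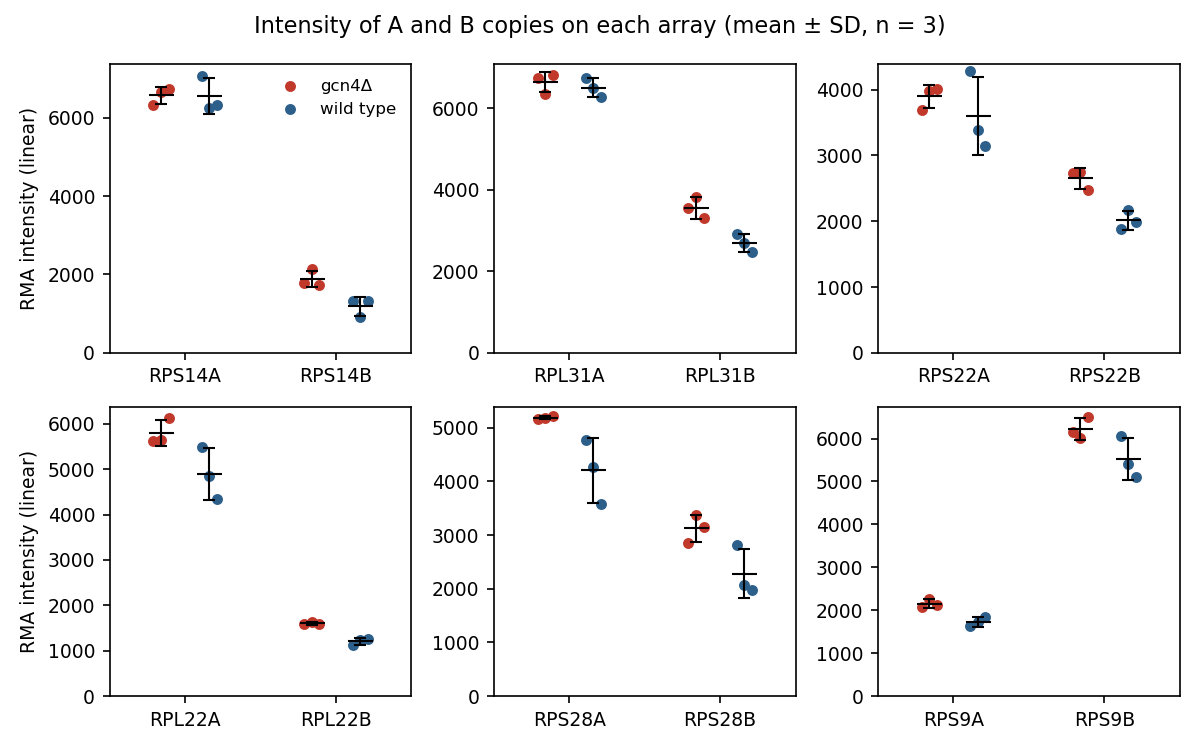
RMA intensity (linear scale) of the A and B copies of 6 pairs on each array, gcn4Δ in red and wild type in blue, with mean ± SD (n = 3). For RPS14, RPL31 and RPS22 the B copy is apart between the strains while the A copy overlaps, and for RPS9 it is the reverse. Levels of different probe sets are not comparable.

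At the other end, 7 members had a change below 0 and none of these passed the test. They were RPL21B, RPL10, RPS0B, RPS0A, RPL26A, RPL21A and RPL24A, with changes of -0.08 to 0.00. RPL10 encodes a large-subunit protein that joins the ribosome at a late step of assembly. It read 8731, 9183 and 9279 in gcn4Δ, against 10165, 8760 and 9123 in the wild type (-0.04 ± 0.09, SE, adjusted p = 0.784, limma). RPS0B, for a small-subunit protein, read 4335, 5480 and 5124 in gcn4Δ, against 6259, 4043 and 5066 in the wild type (-0.02 ± 0.18, SE). For both genes the wild type held the highest value on the array of replicate 1, and the groups overlapped.

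The wild-type arrays differed among themselves on these genes more than the gcn4Δ arrays did. Each gene's log2 intensity was set against its mean over the 6 arrays. The median of this deviation over the 127 genes was 0.04, 0.05 and 0.08 in gcn4Δ replicates 1, 2 and 3, against 0.07, -0.08 and -0.14 in wild type replicates 1, 2 and 3. By this median, wild type replicate 1 thus stood with the gcn4Δ arrays. Over all genes the same medians were 0.01, -0.02 and 0.06 in gcn4Δ and 0.03, -0.03 and -0.03 in the wild type.

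Wild type replicate 1 was the highest of the 3 wild-type arrays for 118 of 127 members (92.9%, beside 47.1% of all genes), and wild type replicate 3 was the lowest for 98 (77.2%, beside 35.4%). Among all 6 arrays, wild type replicate 1 was the highest for 41 members (32.3%, beside 31.0% of all genes). Wild type replicate 3 was the lowest of the 6 for 97 (76.4%, beside 20.8%). The median SD of log2 intensity among replicates was 0.05 in gcn4Δ and 0.12 in the wild type for members, and 0.11 in gcn4Δ and 0.15 in the wild type over all genes. The labels give no batch that could be set against this order, and its part in the results was not tested.

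**Figure D3:**
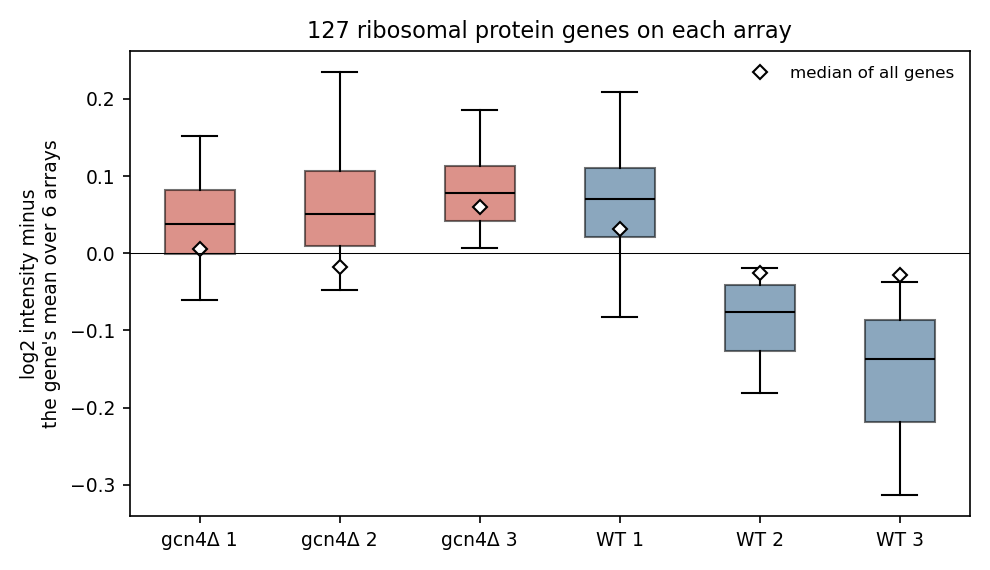
Deviation of the 127 ribosomal protein genes from their own mean over the 6 arrays (log2), by array, gcn4Δ in red and wild type (WT) in blue. Boxes span the quartiles with the median as a line, whiskers the 5th to 95th percentile, and diamonds mark the median of all genes. The members' median on wild type replicate 1 lies with those of the gcn4Δ arrays.

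Results without wild type replicate 1 differed from those with it. All 127 changes were then above 0 (beside 58.5% of all genes). The median was 0.16 (beside 0.05 of all genes), and the groups did not overlap for 110 members (beside 29.5%). Called genes were 6 of 127, beside 6.51% of all genes called higher. At an unadjusted p under 0.05 stood 41 members, with no share of all genes from this fit given beside them. The 6 called genes were RPS14B, RPL22B, RPL31B, RPS28A, RPS28B and RPL9A, the last named after its values were seen. Leaving out wild type replicate 3 made the lean smaller, but did not turn it. The median was 0.05 (beside 0.03 of all genes), and 102 of 127 changes were above 0 (beside 53.6%). The gcn4Δ values lay above without overlap for 35 members (beside 25.4%), and RPL22B alone was called (beside 2.73%).

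The 4 calls did not outlast the loss of a gcn4Δ array. Without gcn4Δ replicate 1, 2 or 3 the count of members called was 0 in each fit with limma. Over all genes 1.14%, 1.43% and 2.44% were then called higher. At an unadjusted p under 0.05 stood 7, 6 and 9 members, with no share of all genes from these fits given beside them. Without wild type replicate 2 RPS22B alone was called (beside 4.72%). Over the 6 omissions RPL22B thus passed in 2 (wild type replicates 1 and 3), RPS14B and RPL31B in 1 each (wild type replicate 1) and RPS22B in 1 (wild type replicate 2). The log2 change stayed at 0.37 to 0.45 for RPL22B, 0.51 to 0.78 for RPS14B, 0.34 to 0.46 for RPL31B and 0.35 to 0.45 for RPS22B.

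The subunits had nearly the same median change. Large-subunit genes had a median change of 0.09 with 2 of 70 called higher, and small-subunit genes one of 0.10 with 2 of 52 called higher. The difference of these medians, large minus small, was -0.01, and its sign turned to 0.01 without wild type replicate 3. Changes above 0 numbered 65 of 70 for the large and 50 of 52 for the small subunit. Unadjusted p-values under 0.05 were 2 in the large and 7 in the small subunit, beside 16.4% of all genes in the same direction. Without overlap, and higher, were 15 large-subunit (21.4%) and 17 small-subunit genes (32.7%), beside 21.1% of all genes.

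Changes above 0.2 were found for 11 of 70 large-subunit and 11 of 52 small-subunit genes, beside 1407 of all 5449 genes. Neither share was above that of all genes. In the large subunit they included RPL22A, RPL41A and RPL9A besides the called RPL22B and RPL31B, and in the small subunit RPS1A, RPS19A, RPS25A and RPS25B besides RPS14B and RPS22B. RPL22A read 5616, 5635 and 6125 in gcn4Δ, against 5493, 4843 and 4337 in the wild type (0.25, adjusted p = 0.190). RPS19A read 3899, 3916 and 3477 in gcn4Δ, against 3334, 3173 and 2777 in the wild type (0.28, adjusted p = 0.131). The groups of both genes were apart, by small gaps. RPL41A, for the shortest protein of the ribosome, read 5358, 5612 and 5514 in gcn4Δ, against 5490, 5069 and 3484 in the wild type (0.26, adjusted p = 0.363). Wild type replicate 3 read lowest, and the other 5 arrays lay between 5069 and 5612.

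The P stalk, a flexible arm of the large subunit, recruits elongation factors. Rpp0 anchors it and carries pairs of P1 and P2 proteins. None of its 5 genes was called by limma, 0 also at an unadjusted p under 0.05, and their changes were 0.03 (RPP1B), 0.11 (RPP1A), 0.12 (RPP0), 0.15 (RPP2B) and 0.17 (RPP2A), with adjusted p from 0.241 to 0.810. RPP0 (YLR340W) read 8506, 8137 and 8318 in gcn4Δ, against 7728, 7746 and 7426 in the wild type. RPP2B read 7527, 7627 and 7815 in gcn4Δ, against 7109, 6805 and 6803 in the wild type. For RPP0, RPP1A and RPP2B the gcn4Δ arrays were all above the wild-type arrays, and for RPP1B and RPP2A the groups overlapped. Their largest fold was 1.13, and their median deviations from the 6-array mean were 0.06, 0.05 and 0.07 in gcn4Δ and -0.03, -0.08 and -0.10 in the wild type, all on one side of 0 in each strain.

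A and B copies could be compared in 50 pairs with both members measured. Intensities of different probe sets are not comparable, so the change of the A/B ratio between the strains was used. The ratio also cancels a scaling that is the same for every probe set of an array, but not one that varies with intensity. The median change was 0.11 for A copies and 0.11 for B copies, and the B copy had the larger change in 24 pairs and the A copy in 26. Neither copy led across the pairs. The difference exceeded 0.2 in 5 pairs, RPS14, RPL31, RPS22, RPL26 and RPS23, and in all 5 the B copy had the larger change. With gene-specific probe sets alone it was 4 pairs, without RPS23. In all 5 pairs the probe set of the B copy was also the dimmer one. For RPS14 the wild-type means were 6542 (A) and 1185 (B). Dimmer members had larger changes (Pearson's r of -0.70, below), so copy and intensity go together here, and their parts were not tested.

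RPS14 and RPL31 were the pairs with the largest differences. RPS14A (YCR031C) read 6315, 6649 and 6731 in gcn4Δ, against 7073, 6237 and 6317 in the wild type, a change of 0.01, beside 0.68 for RPS14B. The log2 A/B ratio of RPS14, relative to its wild-type mean, was -0.66, -0.84 and -0.53 in gcn4Δ, against -0.05, 0.28 and -0.23 in the wild type. The ratio was lower on every gcn4Δ array, by 0.68 ± 0.14 on average (SE).

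RPL31A (YDL075W) read 6745, 6357 and 6806 in gcn4Δ, against 6743, 6503 and 6286 in the wild type, a change of 0.03, beside 0.40 for RPL31B. The RPL31 ratio differed by -0.38 ± 0.09 (SE) and did not overlap between the strains. RPL26 (-0.24 ± 0.07, SE) and RPS23 (-0.20 ± 0.06, SE) did not overlap either, but RPS23A rests on a probe set that can bind other genes. On its own gene-specific probe set RPS23A was at 0.15, beside 0.23 for RPS23B, and the RPS23 difference was then -0.08 ± 0.05 (SE), still without overlap. In RPS19 the A copy had the larger change (0.17 ± 0.06, SE), also without overlap and with a shared probe set for RPS19B (0.16 ± 0.05, SE, on its gene-specific one).

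For RPS22 the ratios overlapped, since RPS22A was also uneven: it read 3695, 3984 and 4015 in gcn4Δ, against 4275, 3381 and 3140 in the wild type. RPL22 and RPS28 ratios overlapped as well, with both copies of each pair reading higher on average in gcn4Δ, at 0.25 for RPL22A and 0.41 for RPL22B, and at 0.31 for RPS28A and 0.47 for RPS28B. For RPS9 the A copy was at 0.32 and RPS9B at 0.17, with overlapping ratios.

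None of the differences passed the test across pairs. Of 52 pairs named with A and B on the array, 50 of them ribosomal, limma called 0 (0%) after Benjamini-Hochberg adjustment, and 5 of the 50 had an unadjusted p under 0.05. The ratio did not overlap between the strains in 7 of 50 pairs, with the A copy gaining in 3 and the B copy in 4. In all 7 the gaining copy had the dimmer probe set. An exact permutation test of a single pair (two-sided) cannot go below p = 0.10 with 3 arrays a group, and those 7 pairs reached it. Over all 52 pairs the share without overlap was 13.5%, but with 2 pairs of other genes this is no background apart from the members.

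**Figure D4:**
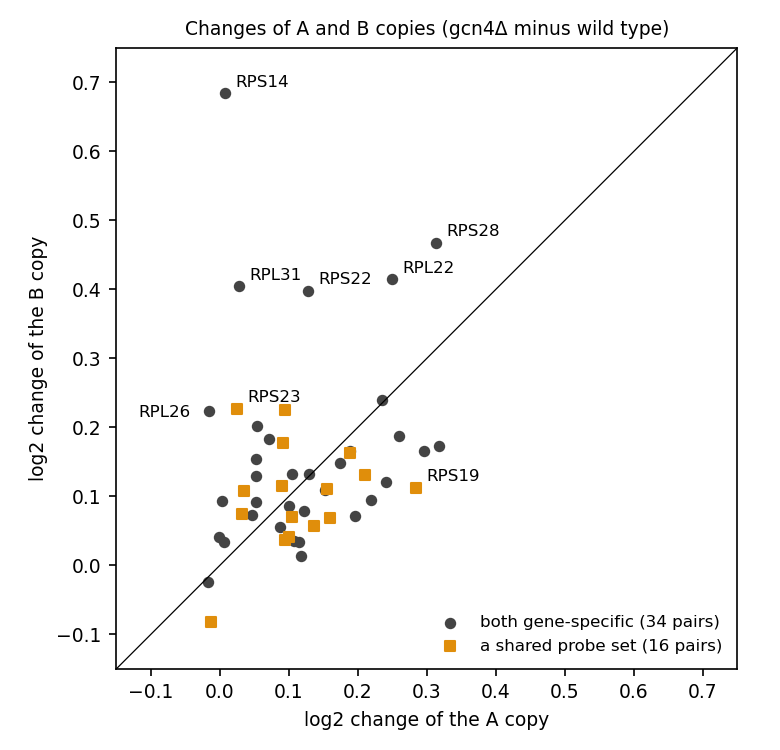
Change of the A copy against the change of the B copy (log2, gcn4Δ minus wild type) in 50 ribosomal protein pairs, with the line of equal change. Circles are the 34 pairs read by gene-specific probe sets and squares the 16 with at least 1 shared probe set; RPS14 and RPL31 lie farthest above the line.

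Near-identical copies are hard to tell apart on an array. Probe sets whose name ends in _s_at or _x_at can bind more than 1 gene, and they stood for 26 of the 127 members, while 101, the 4 called genes among them, had a gene-specific one. Members with a shared probe set had a median change of 0.09 and 0 calls, those with a gene-specific one a median of 0.11 and 4 calls. Among the 26 were 9 genes whose partner copy was not analysed here. In 20 genes with a second probe set the changes from both differed by a median of 0.02 and at most 0.17 (RPL2A, 0.03 and 0.20), and 0 of either kind was called. With gene-specific probe sets alone, 118 members remained and the same 4 genes were called.

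Change and intensity went together among the members. Across the 127 genes, which share arrays and are not independent, Pearson's r between mean log2 intensity and change was -0.70 (Spearman's rho -0.62), beside -0.10 (rho -0.06) over all genes. The 20 dimmest members had a median change of 0.23 and held all 4 calls, and the 20 brightest a median of 0.06. Intensity also depends on the probes, and its part in these changes was not tested.

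**Figure D5:**
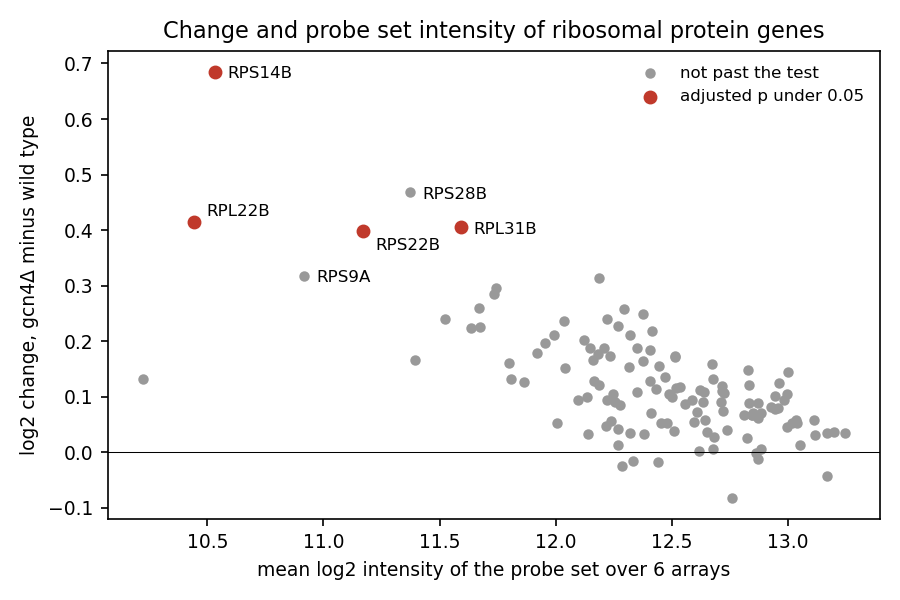
Change (log2, gcn4Δ minus wild type) against the mean log2 intensity of the probe set over the 6 arrays for 127 ribosomal protein genes. The 4 called genes, in red, are among the 20 dimmest, and the spread of changes narrows toward the bright end.

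Of 15 genes that control the ribosomal protein genes, 0 passed the test as reported (limma), with a median change of 0.01. RAP1, whose product binds most of these promoters, was at 0.01, FHL1 at 0.16, IFH1, for the coactivator of Fhl1, at 0.08, SFP1 at -0.14 and HMO1 at 0.15. The signs of RAP1, FHL1 and IFH1 turned without wild type replicate 1 (-0.01, -0.01 and -0.04), and that of RAP1 also without gcn4Δ replicate 3 (-0.05). CRF1, for a corepressor that competes with Ifh1, had the lowest change, with readings of 60.0, 79.4 and 45.2 in gcn4Δ, against 101, 80.8 and 120 in the wild type (-0.73, adjusted p = 0.0958). DOT6, for a repressor of ribosome biogenesis genes, was at 0.24 (adjusted p = 0.102) and the kinase gene TOR1 at -0.30 (adjusted p = 0.0878). At an unadjusted p under 0.05 stood 3 of the 15, CRF1, DOT6 and TOR1, beside 891 higher and 669 lower of all 5449 genes. Their groups did not overlap, as was so for 21.1% (higher) and 14.6% (lower) of all genes. CRF1 passed the test with quantile normalization (-0.91, adjusted p = 0.0258) and with array weights (-0.67, adjusted p = 0.0393), and TOR1 with array weights (-0.37, adjusted p = 0.0206). The array weights stopped before convergence. With the replicate number as a block neither passed (limma, adjusted p = 0.225 for CRF1 and 0.223 for TOR1). Neither passed in any fit short of an array (adjusted p 0.0729 to 0.248 for CRF1, 0.102 to 0.337 for TOR1). CRF1 was dim, at percentile 5.82 of all genes by intensity, and the filter on low values removed it.

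Of 15 chaperone and import factor genes of ribosomal proteins, 1 rose and 0 fell, beside 5.34% of all genes called higher and 6.0% lower. Their median change was -0.07, and 1 had an unadjusted p under 0.05, beside 891 higher and 669 lower of all 5449 genes. PUF6, which with Loc1 guards newly made Rpl43, read 1126, 1004 and 1070 in gcn4Δ, against 837, 878 and 788 in the wild type (0.35, adjusted p = 0.0487), but none of the 6 fits short of an array called PUF6 (adjusted p up to 0.226). ACL4, the chaperone of Rpl4, was at -0.38 (adjusted p = 0.179). Among 9 genes of ribosome-bound proteins under other names 0 passed in limma, with a median of -0.05 and 1, TMA46, at an unadjusted p under 0.05. ASC1, the small-subunit protein related to RACK1, was at 0.12 and STM1, which clamps idle ribosomes, at 0.13, while TMA46 was at -0.41 (adjusted p = 0.141) and passed with array weights (-0.43, adjusted p = 0.0416). Those weights stopped before convergence, and TMA46 passed in no fit short of an array (limma, adjusted p 0.0891 to 0.391).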

How the data were processed

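Total RNA from 6 chemostat samples, 3 of gcn4Δ and 3 of the wild type by their titles, was read on 1 array each. The deposited values are linear intensity values per probe set, which the authors computed by RMA (per the submitters' processing notes). The version used, and whether 1 run covered the 6 arrays, is not given in the labels. The method sets the arrays of 1 run to one distribution, which would even out a change common to most genes.

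Log2 was taken with no pseudocount. Of 10928 probe sets, 5498 matched S. cerevisiae genes through the platform annotation and the R64 reference table, which lists 137 ribosomal protein genes; 10 of these were not analysed here. The brightest probe set by mean stood for a gene. The background level was the 95th percentile of 1746 named probe sets that match no S. cerevisiae gene, and every member was above it on every array. The test for each gene was limma (version 3.58.1, R 4.3.3, lmFit and eBayes without covariates), adjusted by Benjamini-Hochberg over the 5498 probe sets, threshold 0.05. A/B ratios were tested in the same way over all A/B-named pairs. Without 1 array, a group of 2 shares the pooled spread. The gene test was tried on simulated data with known changes. For pairs, simulated data served only to check that the ratio's change equals the A change minus the B change.

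Members and lists were chosen with earlier results of these data known. Genes named were GCN4, the stalk genes, called members, the 6 largest changes in each direction, the 8 pairs with the largest differences and some of each list; others were named for their values. Alternatives were a replicate block, leaving out each array, quantile normalization, median centring, a 25% low filter, trend and robust variances, array weights, probe set choices and a threshold of 0.01. Plots were made in Python 3.11.15 (matplotlib 3.10.9). Sequences and coordinates were not used here.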

Additional observations from a re-analysis of the deposited data

Results flagged for a closer look

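The array carries 13 named probe sets with lower-case ribosomal protein symbols that match no S. cerevisiae gene and enter no comparison. On all 6 arrays, 4 of them were above the background level, a share of 30.8% beside 2.29% of all 1746 probe sets that match no S. cerevisiae gene. Their mean intensities were 41.0 (rpl13), 30.3 (rps102), 27.5 (rps13) and 25.2 (rps2). The probe set rpl13 read 43.3, 51.7 and 35.6 in gcn4Δ, against 34, 41.1 and 40.1 in the wild type. The source of this signal was not tested. Groups of 3 are too small for a test of outlying arrays.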

How the results depend on the processing

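With 4 members and 618 of all genes called in the fit reported, the members' count was 0 with the replicate number as a block (7 at an unadjusted p under 0.05), 2 with median centring, 16 with array weights and 0 at a threshold of 0.01. Calls over all genes were then 210, 652, 1443 and 224. For the block, no share of all genes at an unadjusted p under 0.05 is given. Over omissions of 1 array the members' count was 0 to 6. The array weights stopped before convergence and gave gcn4Δ replicate 1 a weight of 7.06. Median centring lost RPL31B and RPS22B (adjusted p = 0.0587 and 0.0531). Quantile normalization gave 6 calls (679 over all genes), and the filter on low values, trend and robust variances, and both other choices of probe set gave 4. Same-numbered arrays of the strains did not deviate together (correlations of -0.34, -0.39 and -0.23), and no array correlated best with its own number. Deviations within groups of 3 are tied to one another, so these correlations cannot decide whether the numbers pair the arrays. The highest correlation was that of gcn4Δ replicate 1 with wild type replicate 2, at 0.56 over all genes and 0.77 over members. The median change kept its sign in every setting (0.05 to 0.16), the difference of subunit medians ran from -0.026 to 0.0091 over the omissions, and 1 pair was called with trend and robust variances and 3 with array weights. Signs turned for 11 named genes. They were RPS0B (0.0015 with quantile normalization, -0.18 to 0.13 over omissions), RPL26A (0.0087 with quantile normalization, 0.037 with array weights, -0.066 to 0.063), RPS0A (0.00054 with array weights, -0.071 to 0.037), RPL21A (0.029 with array weights, 0.020 with the mean of probe sets, 0.052 with gene-specific probe sets, -0.058 to 0.069) and IFH1 (-0.039 with array weights, -0.039 to 0.16). Over omissions alone they were RPL21B (-0.13 to 0.0034), RPL10 (-0.088 to 0.019), RPS14A (-0.026 to 0.064), RPS23A (-0.023 to 0.059), RAP1 (-0.053 to 0.092) and FHL1 (-0.0074 to 0.28). The cause of these shifts was not tested. The number of arrays, 3 a group, limits all of these values.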
